A study of Mus musculus with 8 samples.

Results

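The genes described here are the 10 named genes of the mouse chromosome 11 interval that runs from Kif3a to Il3. They were chosen by symbol from the 23183 genes listed for each library. The 10 genes comprise 5 cytokine genes (Il3, Csf2, Il5, Il13 and Il4). The other 5, which lie between and beside them, encode no cytokine (P4ha2, Slc22a5, Irf1, Rad50 and Kif3a). The comparison asked whether a change after Piezo1 activation followed position along the chromosome or was seen for single cytokine genes. All 10 genes were listed in every library, and 9 of them had enough counts to be tested.

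Bulk mRNA-seq was performed on 8 samples of cultured group 2 innate lymphoid cells (ILC2s) from the lungs of C57BL/6 mice. Of these, 4 were treated with 5 µM Yoda1, a chemical agonist of the mechanosensitive ion channel Piezo1, and 4 with 0.1% DMSO, the vehicle, for 3 h. The cells of both groups had been enriched with magnetic beads from the lungs of mice given IL-33 and were cultured with IL-2, IL-7 and IL-33. Whether the samples within a group are separate mice or cultures is not given in the sources used here, and p-values therefore measure the spread between these samples. Library totals ran from 12438009 to 19534653 counts. Levels are CPM, that is, counts scaled to a common library size, and a gene is called when edgeR's quasi-likelihood test gave it an adjusted p under 0.05 (Benjamini-Hochberg, over the 12239 genes tested).

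ILC2 markers were abundant. All 12 were tested and 9 of them exceeded 100 CPM on average, among them Gata3, Il1rl1 (the IL-33 receptor) and Il2ra. Of the 12, 3 rose with Yoda1 (Il1rl1, Thy1 and Ptprc), and 1 fell, Icos (log2 fold change -0.18, edgeR adjusted p = 0.000601). For comparison, 10.9% of all genes tested were called, 6.04% higher and 4.84% lower. Mast cells and basophils also transcribe Il4 and Il13, and their 10 markers summed to between 5.91 and 7.74 CPM with DMSO and between 7.10 and 8.58 CPM with Yoda1. Of those markers 4, including Fcer1a and Mcpt4, never exceeded 3 counts in any library. T cell markers summed to between 134 and 139 CPM with DMSO and between 141 and 148 CPM with Yoda1, with 1 of 9 called (Cd28, higher). NK cell markers summed to between 764 and 841 CPM with DMSO and between 812 and 877 CPM with Yoda1. Most of that sum came from Prf1 and Gzma, at 385 and 344 CPM with DMSO. Of the NK cell markers, 2 of 6 were called (Eomes and Prf1, both higher). Gzma and Klra8 were higher without a call, and Ncr1 (4.42 to 3.70 CPM) and Klrb1c (6.07 to 5.28 CPM) were lower without a call. The summed ILC2 markers also lay higher with Yoda1, between 9424 and 9926 CPM against 8915 to 9355 CPM. In a bulk sample a larger share of one cell type and more RNA per cell cannot be told apart, and the part of these markers in the results that follow was not tested.

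As background, IL-4, IL-5 and IL-13 are the signature cytokines of type 2 immunity, and their genes lie together with Rad50, whose introns hold the locus control region that acts on Il4 and Il13. Csf2 and Il3 form a neighbouring pair at the other end of the interval. Transcription of these cytokine genes in activated lymphocytes depends on GATA3 and on calcium-driven NFAT factors, and their mRNAs are short-lived because AU-rich elements in the 3′ untranslated region recruit decay factors. ILC2s are known for abundant Il5 and Il13 and for little Il4.

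The genes were placed with the GENCODE M21 annotation of GRCm38, the build that the submitters' processing notes name as mm10. From low to high coordinates on chromosome 11, Kif3a spans 53567379 to 53601967 on the plus strand, Il4 53602982 to 53618669 on the minus strand, Il13 53631324 to 53634702 on the minus strand and Rad50 53649519 to 53707319 on the minus strand. Il5 follows from 53720794 to 53725106 and Irf1 from 53770014 to 53778374, both on the plus strand. Beyond them lie Slc22a5 from 53864542 to 53891660 (minus), P4ha2 from 54100095 to 54131665 (plus), Csf2 from 54247271 to 54249667 (minus) and Il3 from 54265303 to 54267277 (minus). The whole stretch measures 699.9 kb and holds 28 annotated genes, of which 15 are listed in the count files. Il4 and Il13 are separated by 12.7 kb, Il13 and Rad50 by 14.8 kb, Rad50 and Il5 by 13.5 kb, and Il5 and Irf1 by 44.9 kb. Il13, Il5, Il4 and Csf2 each have 4 exons in their principal transcript, Il3 has 5 and Rad50 has 25. Genes of the opposite strand share 417 exonic bases with Il5 (Gm12214), 135 with Irf1 (Gm17334) and 96 with Csf2 (Gm12223). None of those partners is listed in the files, and because the strand setting of the counting is not given in the sources used here, their reads cannot be told apart from those of the genes they overlap.

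The proximal promoters of the genes that the results turn on are printed to show the letters these neighbours do and do not share. Each sequence is the 250 bases before a transcription start that RefSeq's GRCm38.p6 annotation gives, 5′ to 3′ on the strand of the gene. Distances are counted from that start. Capitals mark the NFAT core GGAAA and the GATA hexamers AGATAA and AGATAG on either strand, so that a reverse-strand match shows their complement. For Il13, Il5 and Irf1 this start is also the one that GENCODE gives to the gene, and for Il4 it lies 4 bases downstream of it. For Csf2 it lies 232 bases upstream of the GENCODE start, so the Csf2 window does not hold the bases just before the GENCODE start.
Il13 (chr11:53634703-53634952, - strand): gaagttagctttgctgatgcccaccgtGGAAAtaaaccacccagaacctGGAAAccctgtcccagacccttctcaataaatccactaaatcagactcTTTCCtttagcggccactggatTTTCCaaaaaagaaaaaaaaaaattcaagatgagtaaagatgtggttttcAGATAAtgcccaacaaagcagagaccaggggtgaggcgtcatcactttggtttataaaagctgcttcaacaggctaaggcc
Il5 (chr11:53720544-53720793, + strand): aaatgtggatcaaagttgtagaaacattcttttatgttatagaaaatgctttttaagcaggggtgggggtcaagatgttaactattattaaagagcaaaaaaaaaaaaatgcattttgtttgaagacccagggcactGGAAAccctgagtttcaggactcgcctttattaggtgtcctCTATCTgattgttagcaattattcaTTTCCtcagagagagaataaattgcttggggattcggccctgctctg
Csf2 (chr11:54249900-54250149, - strand): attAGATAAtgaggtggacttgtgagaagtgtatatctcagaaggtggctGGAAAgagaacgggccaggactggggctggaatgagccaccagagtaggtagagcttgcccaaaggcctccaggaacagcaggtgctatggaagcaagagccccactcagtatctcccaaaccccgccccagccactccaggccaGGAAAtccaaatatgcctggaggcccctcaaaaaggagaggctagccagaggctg
Irf1 (chr11:53769764-53770013, + strand): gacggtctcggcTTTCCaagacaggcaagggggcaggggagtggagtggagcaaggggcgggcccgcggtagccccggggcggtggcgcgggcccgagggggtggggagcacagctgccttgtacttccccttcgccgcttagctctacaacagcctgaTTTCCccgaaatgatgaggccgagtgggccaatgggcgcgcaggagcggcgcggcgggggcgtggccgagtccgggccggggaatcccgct
Il4 (chr11:53618666-53618915, - strand): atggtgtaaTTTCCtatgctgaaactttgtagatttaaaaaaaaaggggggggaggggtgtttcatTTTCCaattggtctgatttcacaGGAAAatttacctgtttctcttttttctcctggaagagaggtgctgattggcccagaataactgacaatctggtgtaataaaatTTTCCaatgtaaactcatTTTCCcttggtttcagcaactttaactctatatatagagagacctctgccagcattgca
The Il13 promoter held 4 NFAT cores and 1 GATA hexamer, which lay 81 to 76 bases before the start. The Il5 promoter held 2 NFAT cores and 1 GATA hexamer on the reverse strand, 72 to 67 bases before the start. Csf2 had 2 NFAT cores and 1 GATA hexamer at the far edge of the window, 247 to 242 bases before its start. The Il3 promoter, not printed, held 1 of each. Il4 had the most NFAT cores, 5, and no GATA hexamer. Irf1 had 2 NFAT cores and no GATA hexamer, Kif3a had 1 NFAT core, and the windows of Slc22a5, P4ha2 and Kif3a held no GATA hexamer. RefSeq also gives Il4 a start 1331 bases downstream of the GENCODE start, and Irf1 one 459 bases downstream. The windows before those starts, not printed, held no NFAT core and no GATA hexamer. The P4ha2 window belongs to a RefSeq start 829 bases downstream of the GENCODE start. No promoter is described here for Rad50.

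Among 11864 promoters of tested genes, 54.1% held at least 1 NFAT core, 20.2% at least 2, 1.42% at least 4 and 0.413% at least 5. A GATA hexamer occurred in 10.6% of them and in 16.5% of all 32851 promoters. It occurred in 4 of the 5 cytokine promoters of the interval, with Csf2 counted in the window described above. Il3, among the 4, was not a tested gene. The AP-1 motif TGANTCA was in none of the printed windows and in 4.33% of the promoters of tested genes. The TATA box letters TATAAA stood in the Il13 window, where they overlap their reverse-strand copy, and in 6.28% of the promoters. These matches describe letters in a window and were not tested for binding.

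With Yoda1, 4 of the 9 tested genes of the interval rose and none fell. The called genes were Csf2, Il13, Irf1 and Il5, and the 5 that did not pass were Rad50, Il4, P4ha2, Slc22a5 and Kif3a. Over all genes tested, 10.9% were called, 6.04% higher and 4.84% lower, and the median absolute log2 fold change of a called gene was 0.23. That split depends on the scaling: TMM factors gave 739 higher and 592 lower genes, library totals alone 553 and 809, and upper-quartile factors 505 and 958. The calls of Csf2, Il13, Irf1 and Il5 were made under each of these scalings. By kind, 3 of the 4 tested cytokine genes and 1 of the 5 other genes were called. All 4 called genes had every Yoda1 sample above every DMSO sample, an arrangement in 1 direction or the other that 15.5% of all tested genes showed.

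**Figure D1:**
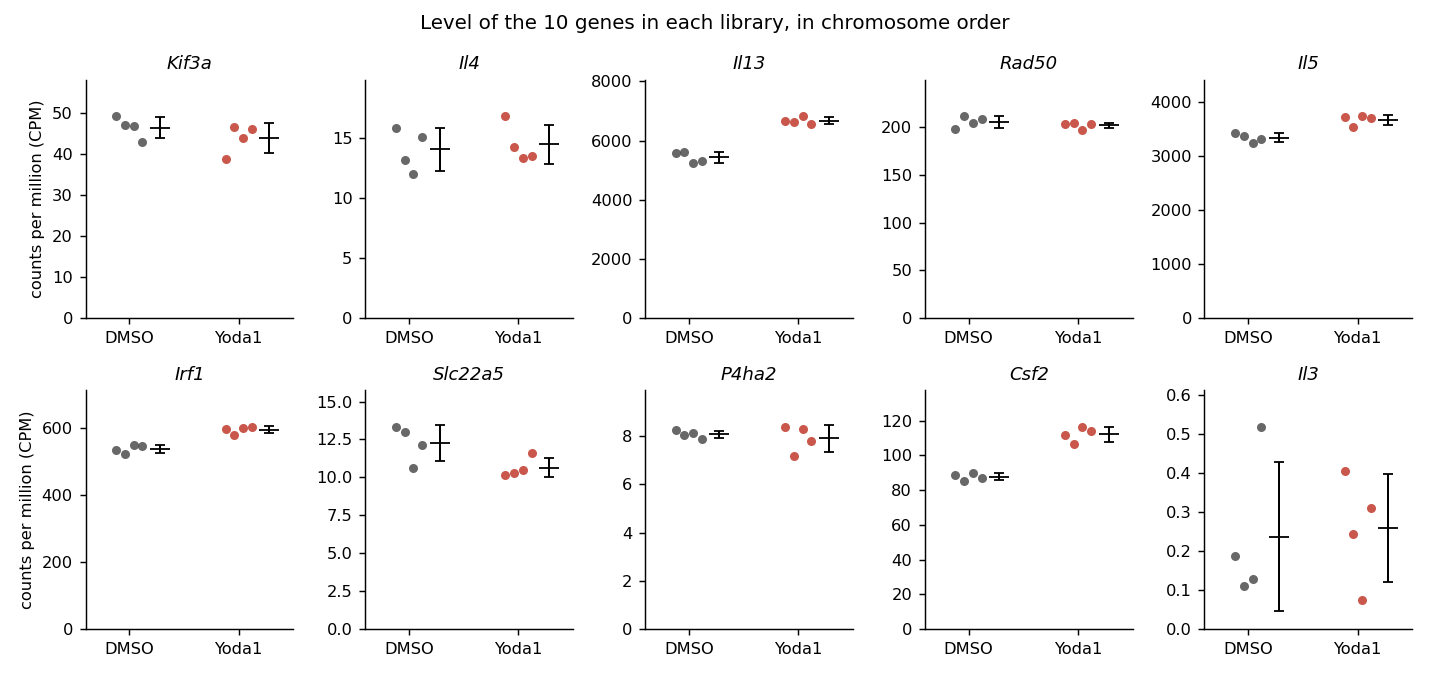
CPM of the 10 genes in each of the 8 libraries, in chromosome order, with DMSO in grey and Yoda1 in red. Bars give the mean and SD of 4 samples, every axis starts at 0, and the groups are apart for Il13, Il5, Irf1 and Csf2.

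Il13 encodes the cytokine that drives mucus production and airway remodelling. Its levels in the DMSO samples were 5584, 5598, 5234 and 5307 CPM, and in the Yoda1 samples 6653, 6634, 6825 and 6554 CPM. The groups were apart, and the lowest Yoda1 sample was well clear of the highest DMSO sample. The log2 fold change was 0.30 (95% interval 0.23 to 0.37, edgeR adjusted p = 3.61e-07), a rise of 22.8%. Of all counts, Il13 took 0.547% ± 0.018 (SD, n = 4) in the DMSO group and 0.661% ± 0.010 (SD, n = 4) in the Yoda1 group. The two-sided exact permutation test of these shares gave p = 0.0286, and groups of this size cannot give a smaller one.

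Il5 encodes the growth and survival factor of eosinophils. Its DMSO samples were at 3423, 3374, 3236 and 3317 CPM and its Yoda1 samples at 3716, 3536, 3739 and 3697 CPM. The groups did not overlap, although the lowest Yoda1 sample stood close to the highest DMSO sample. The log2 fold change was 0.14 (95% interval 0.068 to 0.21, edgeR adjusted p = 0.00733), a rise of 10.02%.

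Csf2 encodes GM-CSF, which supports macrophages, dendritic cells and granulocytes. It was counted 1175 to 2217 times per library. The DMSO samples were at 88.8, 85.4, 90.03 and 86.8 CPM and the Yoda1 samples at 112, 106, 117 and 114 CPM. Every Yoda1 sample lay above the DMSO samples, and within each group the coefficient of variation was 2.32% with DMSO and 3.84% with Yoda1. Csf2 had the highest fold change of the 9 genes, 0.35 on the log2 scale (95% interval 0.27 to 0.44, edgeR adjusted p = 3.36e-07), a rise of 27.8%.

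Il4 encodes the cytokine that directs T helper type 2 differentiation and IgE switching. It was counted 178 to 262 times per library. Levels were 15.8, 13.1, 12.02 and 15.1 CPM in the DMSO samples and 16.8, 14.2, 13.3 and 13.5 CPM in the Yoda1 samples. The groups overlapped, and both were widely spread. Il4 had a log2 fold change of 0.038 (95% interval -0.15 to 0.23, edgeR adjusted p = 0.850), an interval that holds the fitted change of Il5 but not that of Il13.

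Il3 encodes a growth factor of mast cells and basophils, and it was barely detected. The DMSO libraries held 3, 2, 2 and 7 counts and the Yoda1 libraries 5, 4, 1 and 6 counts, 14 and 16 counts in all. Il3 did not pass the filter on low counts, and a difference between the groups was not detectable at this depth. Its neighbour Csf2, 15.6 kb away, was counted more than 1000 times in every library. Together, the 5 cytokine genes took 0.893% ± 0.025 of all counts in the DMSO group and 1.04% ± 0.018 in the Yoda1 group (SD, n = 4 each; two-sided exact permutation test, p = 0.0286). That sum is mostly Il13 and Il5, with 345096 and 211785 counts over the DMSO libraries, against 5561 for Csf2 and 885 for Il4.

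Irf1, a transcription factor induced by interferons, was the gene of the interval that rose without encoding a cytokine. Its DMSO samples were at 536, 524, 549 and 549 CPM and its Yoda1 samples at 599, 581, 601 and 605 CPM. The groups were apart. Irf1 had a log2 fold change of 0.14 (95% interval 0.076 to 0.21, edgeR adjusted p = 0.00478), a rise of 10.6%. On the chromosome Irf1 follows Il5.

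Rad50, the ATPase of the MRE11-RAD50-NBN complex that binds DNA ends, lies between Il13 and Il5. Its levels were 198, 212, 205 and 209 CPM with DMSO and 203, 204, 198 and 203 CPM with Yoda1. The groups overlapped, with small spread in both. The log2 fold change was -0.026 (95% interval -0.099 to 0.046, edgeR adjusted p = 0.703), and the upper end of that interval lies below the lower ends for Il13 and Il5.

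Slc22a5, the carnitine transporter OCTN2, was at 13.3, 12.98, 10.6 and 12.1 CPM with DMSO and at 10.2, 10.3, 10.5 and 11.6 CPM with Yoda1. Only DMSO replicate 3 and Yoda1 replicate 4 bring the groups into overlap. The log2 fold change was -0.20 (95% interval -0.39 to -0.012), with an unadjusted p of 0.0382 and an adjusted p of 0.171 in edgeR, so it was not called. P4ha2, a prolyl hydroxylase subunit of collagen synthesis, was at 8.26, 8.05, 8.12 and 7.91 CPM with DMSO and at 8.40, 7.18, 8.32 and 7.82 CPM with Yoda1, overlapping groups. Its log2 fold change was -0.036 (95% interval -0.24 to 0.17, edgeR adjusted p = 0.870). Kif3a, a motor subunit of kinesin-2, was at 49.3, 47.0, 46.8 and 42.9 CPM with DMSO and at 38.8, 46.6, 44.0 and 46.3 CPM with Yoda1. Its groups also overlapped, and Yoda1 replicate 1 was the lowest of all libraries. Kif3a had a log2 fold change of -0.078 (95% interval -0.19 to 0.039, edgeR adjusted p = 0.426).

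Read along the chromosome, called and uncalled genes were interspersed. Uncalled does not mean unchanged, since the intervals of Il4 and P4ha2 hold the fitted change of Il5. Il13 lay between Il4 and Rad50, which were not called, Il5 and Irf1 were called side by side, and Slc22a5 and P4ha2, not called, separated them from Csf2. Between Kif3a and Csf2, 11 genes were tested and 4 were called, beside 10.9% of all genes tested. All 4 were members already named. The 2 other tested genes of the stretch were Gm12216, with a log2 fold change of -0.28 (adjusted p = 0.195), and Slc22a21, a further carnitine transporter counted 6 to 24 times per library, with -0.13 (adjusted p = 0.876). Of the listed genes, Slc22a4, Pdlim4, 4933405E24Rik and Il3 were too low to be tested. The median log2 fold change of the 11 genes was -0.026, and that of all genes tested was -0.0053.

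Outside the interval, 10 tested protein-coding genes were taken on each side. Of those beyond Kif3a, 1 was called higher (Aff4, a subunit of the super elongation complex, 0.13) and 2 lower (Tcf7, encoding TCF-1, -0.42, and Sept8, a septin, -0.17). Sept8 is the tested gene next to Kif3a and stood at 294 ± 4.77 CPM in the DMSO group and at 261 ± 9.34 CPM in the Yoda1 group (SD, n = 4 each). Beyond Il3, 1 of 10 was called (Gm2a, the GM2 ganglioside activator, 0.12), while Fnip1, the tested gene next to Il3, had 0.15 with an adjusted p of 0.0616 in edgeR. The flanks thus gave 2 genes called higher and 2 called lower of 20, with a median log2 fold change of -0.0064. The calls of Aff4 and Gm2a were the least stable, being made in 6 and 10 of 15 other settings of the analysis. On chromosome 11 as a whole, 134 of 1000 tested genes were called, 82 higher and 52 lower. That is 13.4%, beside 10.9% of all genes tested.

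**Figure D2:**
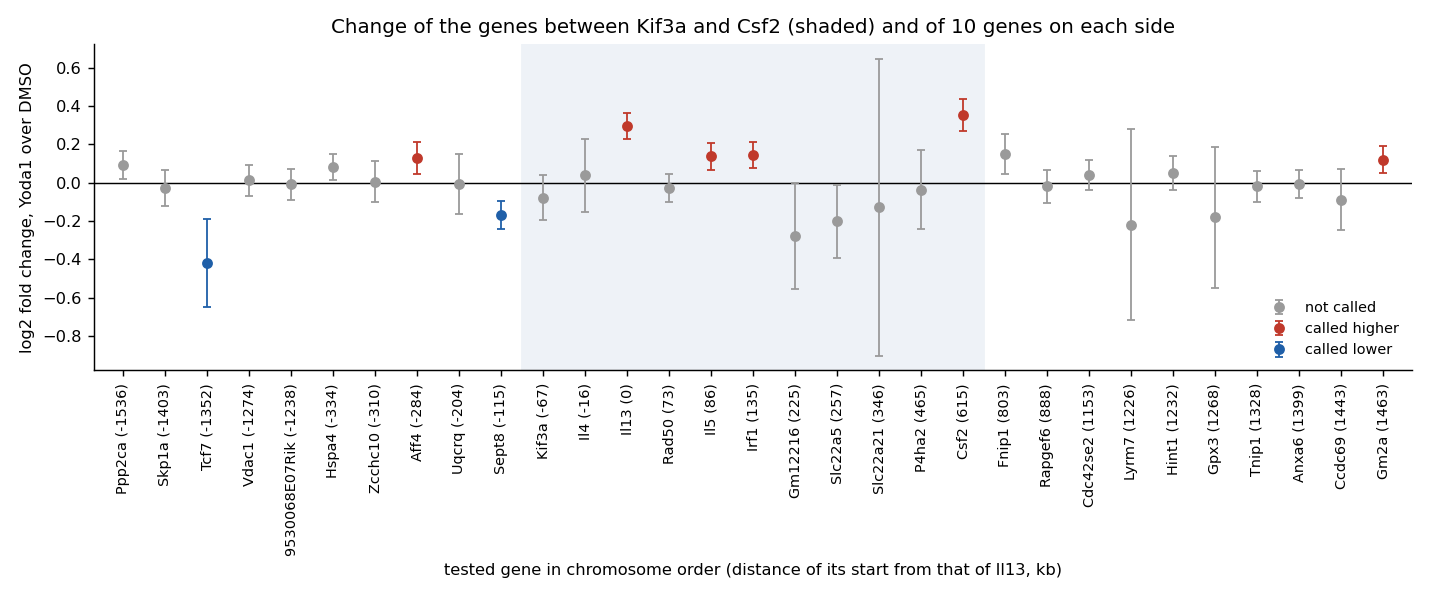
Log2 fold change (Yoda1 over DMSO) with its 95% interval for the 11 tested genes between Kif3a and Csf2 (shaded) and for 10 tested genes on each side, in chromosome order, with the distance of each start from that of Il13 in kb. Genes called higher are red and genes called lower blue. Il13 and Csf2 stand above 0 between grey neighbours, and Il5 and Irf1 stand above 0 side by side.

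To compare neighbours directly, the log2 ratio of their counts was taken within each library, where the library total and its scaling cancel out. The 9 pairs of neighbouring members and 3 cytokine pairs gave 12 tests with the two-sided exact permutation test. Of these, 6 reached 0.0286, the smallest p possible, and after adjustment over the 12 pairs that p became 0.0571, so 0 of 12 passed. A limma fit of the ratios of all genes to the second gene of a pair was added after seeing the data. Its p was adjusted over the 12238 genes of each fit, not over the pairs. By that adjustment 5 of 11 pairs passed, and 6 had an unadjusted p under 0.05. The 5 of 11 and the 0 of 12 thus rest on different adjustments. In those limma fits between 1.07% and 84.1% of all genes differed from the second gene, so that a pass against Csf2 or Il13 is common to most genes.

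The ratio of Il13 to Rad50 rose in every Yoda1 sample above every DMSO sample. As log2 of Rad50 over Il13, the difference was -0.32 (limma 95% interval -0.43 to -0.21; exact permutation p = 0.0286). Il5 over Rad50 differed by 0.16 (interval 0.052 to 0.28; exact permutation p = 0.0286), and of the 6 pairs with an unadjusted limma p under 0.05 it was the 1 that did not pass (limma adjusted p = 0.109). Csf2 over P4ha2 showed the widest gap of the neighbouring pairs, 0.38 (interval 0.25 to 0.52; exact permutation p = 0.0286), since the count ratio went from 10.9 ± 0.217 to 14.2 ± 0.669 (SD, n = 4 each). Slc22a5 over Irf1 differed by -0.35 (interval -0.55 to -0.15; exact permutation p = 0.0286). Each of these pairs joins a called member to the neighbouring member that was not called.

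Irf1 and Il5, which are neighbours and were both called, kept their ratio within narrow limits. The count ratio of Irf1 to Il5 was 0.162 ± 0.0070 in the DMSO group and 0.162 ± 0.0018 in the Yoda1 group (SD, n = 4 each). The log2 difference was 0.0070 with a 95% interval of -0.091 to 0.10 (exact permutation p = 0.886). Il4 over Kif3a differed by 0.13 (interval -0.18 to 0.44; exact permutation p = 0.543), and P4ha2 over Slc22a5 by 0.17 (interval -0.066 to 0.41; exact permutation p = 0.171). Both intervals are wide enough to hold differences as large as that of Il13 and Rad50 in size.

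Within the cytokine genes, the changes were unequal. Il13 over Il5 rose from a count ratio of 1.63 ± 0.025 to 1.82 ± 0.046 (SD, n = 4 each), a log2 difference of 0.16 (interval 0.073 to 0.24; exact permutation p = 0.0286). The DMSO samples had ratios of 1.63, 1.66, 1.62 and 1.60 and the Yoda1 samples 1.79, 1.88, 1.83 and 1.77, without overlap. Il5 over Csf2 differed by -0.22 (interval -0.32 to -0.11; exact permutation p = 0.0286). Il13 over Csf2 differed by -0.057 (interval -0.18 to 0.064; exact permutation p = 0.257), with overlapping groups. Il13 over Il4 differed by 0.25, but with an interval from -0.062 to 0.56 (exact permutation p = 0.114) the low counts of Il4 show neither a firm difference nor a firm likeness. The ratio of Il3 to Csf2 rested on at most 7 counts of Il3 per library, and the groups overlapped (exact permutation p = 0.83).

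**Figure D3:**
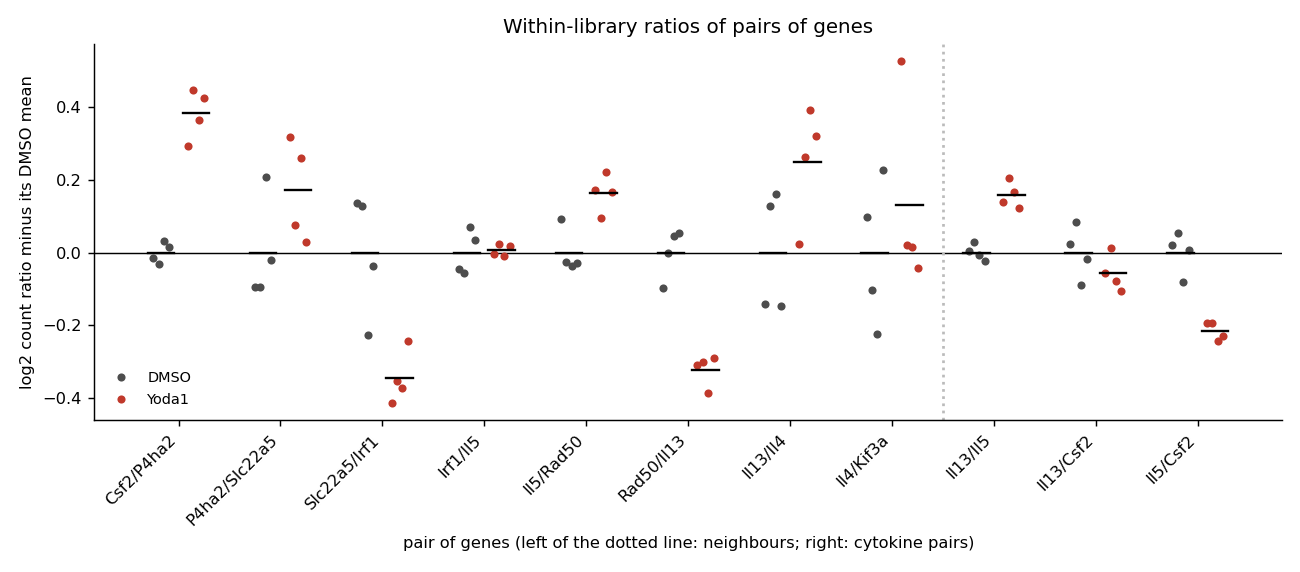
Log2 ratio of the counts of 2 genes in each library minus the DMSO mean of that ratio, for 8 neighbouring pairs and 3 cytokine pairs, with DMSO in grey, Yoda1 in red and group means as black lines. Csf2/P4ha2, Il5/Rad50 and Il13/Il5 lie higher with Yoda1, Slc22a5/Irf1, Rad50/Il13 and Il5/Csf2 lie lower, and Irf1/Il5 stays at 0.

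Levels spanned a wide range between these neighbours. Per kb of exon, Il13 stood at 4507 CPM with DMSO and Il5 at 2171 CPM, both above the 99.9th percentile of tested genes. Irf1 followed with 136 and Csf2 with 110 CPM per kb, at the 97.5th and 97.0th percentile. Rad50 was at 38.3, Kif3a at 12.97, Il4 at 11.4, Slc22a5 at 3.99, P4ha2 at 1.30 and Il3 at 0.375 CPM per kb. In that order the only neighbours whose samples overlapped, in both groups, were Kif3a and Il4. With the longest protein-coding transcript in place of all exons, Il4 came to 23.2 and Kif3a to 14.7 CPM per kb, so those genes changed places. Rad50 and Il4, the members on either side of Il13, were both far below it.

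**Figure D4:**
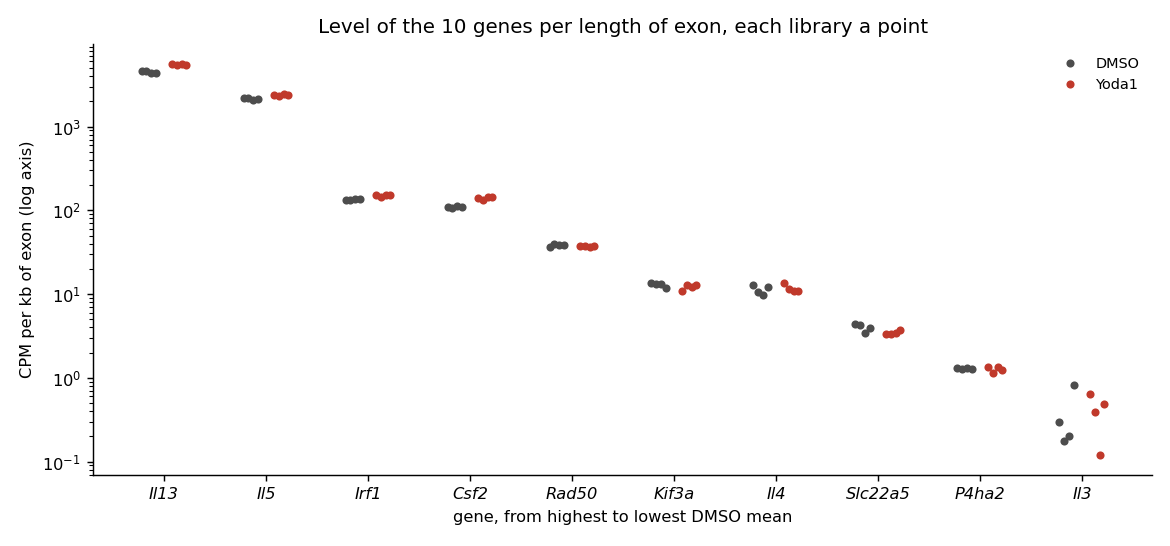
CPM per kb of exon for the 10 genes on a log axis, ordered by the DMSO mean, with each of the 8 libraries as a point (DMSO grey, Yoda1 red). Il13 and Il5 lie far above the rest, Irf1 and Csf2 follow between 107 and 152, and Il3 lies lowest.

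AU-rich pentamers (ATTTA) in the 3′ untranslated region were counted on the transcript that GENCODE marks as principal. The densest window of 30 bases is printed for the called genes, with the pentamers in capitals, in DNA letters of GRCm38, 5′ to 3′ on the strand of the gene. All of these windows lie in the last exon.
Csf2 (chr11:54247329-54247358, - strand): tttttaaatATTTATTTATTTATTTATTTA
Il5 (chr11:53724105-53724134, + strand): gataccatatgctgtttccATTTAtATTTA
Il13 (chr11:53631733-53631762, - strand): atcttATTTAttatggttgtgtgttATTTA
Irf1 (chr11:53777090-53777119, + strand): ctccccagtctaggcctttgcATTTATTTA
Csf2 had 9 pentamers in 317 bases, or 28.4 per kb, and 5 of them overlapped one another in the printed window. Il5 had 7 (6.41 per kb), Il13 had 3 (4.05 per kb), Irf1 had 3 (3.42 per kb) and Rad50 had 3 (3.16 per kb). Il3 had 1 in 101 bases (9.90 per kb), Kif3a had 1 in 908 bases, and P4ha2 and Slc22a5 had none. Of 11233 tested genes with an annotated 3′ untranslated region, 68.1% held at least 1 pentamer, the median was 1, and 0.0623% had as many per kb as Csf2.

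The receptors of these cytokines were examined next. Of the 9 receptor genes, 6 were tested and 1 was called, Il4ra, the chain shared by the IL-4 and IL-13 receptors, which fell from 455 ± 20.0 to 412 ± 10.6 CPM (SD, n = 4 each; log2 fold change -0.14, edgeR adjusted p = 0.00886). Without DMSO replicate 2, the call of Il4ra was lost (adjusted p = 0.0502). Il2rg, the common gamma chain used by the IL-4 receptor, had 0.10 (adjusted p = 0.0598), Il3ra -0.12 (adjusted p = 0.220), Csf2ra 0.046 (adjusted p = 0.848) and Csf2rb2 0.10 (adjusted p = 0.50). Csf2rb, the beta chain shared by the IL-3, IL-5 and GM-CSF receptors, was not called with -0.20 (adjusted p = 0.0651), and it was called in 5 of the 15 other settings, library totals alone and upper-quartile factors among them. Il5ra, Il13ra1 and Il13ra2 never exceeded 3 counts in a library. The median log2 fold change of the 6 tested genes was -0.035, and of all genes tested 10.9% were called.

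Among 25 transcription factors known to act on the type 2 locus, 24 were tested, 5 were higher and 4 lower with Yoda1. Their median log2 fold change was 0.025, and of all genes tested 6.04% were called higher and 4.84% lower. Gata3, the factor that opens the locus, was at 565 CPM in both groups (log2 fold change 0.00020, standard error 0.039, edgeR adjusted p = 0.998), and its sign depends on the scaling. The 5 called factors with the smallest p were Gfi1, a repressor that supports ILC2s (44.2 to 64.5 CPM, 0.55), Fosb, an AP-1 subunit (2.35 to 5.93 CPM, 1.34), Bhlhe40 (524 to 586 CPM, 0.16), and, in the other direction, Nfatc2 (337 to 277 CPM, -0.28) and Runx3 (204 to 180 CPM, -0.18). All 5 passed in each of the 15 other settings. Of 15 chromatin and looping factors, including CTCF and the cohesin subunits, 1 was called, Phf11a, which fell by 0.54 on the log2 scale from 3.45 to 2.38 CPM but passed in only 5 of 15 other settings. The median of those 15 was 0.012.

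Cytokine genes elsewhere in the genome changed in both directions. Of 23 listed, 14 were tested, 6 were higher and 3 lower, beside 6.04% higher and 4.84% lower of all genes tested. Ifng, the type 1 cytokine, went from 106 to 268 CPM (log2 fold change 1.35, edgeR adjusted p = 1.08e-11), Il6 from 15.7 to 22.6 CPM (0.52), Tnfsf11, encoding RANKL, from 57.7 to 74.6 CPM (0.37) and Areg, encoding amphiregulin, from 281 to 324 CPM (0.20). Lta, encoding lymphotoxin alpha, fell from 224 to 128 CPM (-0.81). The median log2 fold change of the 14 was 0.095. The fitted log2 fold changes of Csf2 and Il13 lay below those of Ifng and Il6, and that of Il5 lay below each of the 4 rises given here, although these differences between genes were not tested.

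For Irf1, relatives and textbook targets were listed. Of 12 genes of the IRF family and its binding partners, Irf1 included, all were tested, 2 were higher and 2 lower. The shares over all genes tested were 6.04% higher and 4.84% lower. Irf8 rose from 227 to 309 CPM (0.45, edgeR adjusted p = 2.04e-09), and the partners Irf2bp2 (-0.19) and Irf2bpl (-0.17) fell, passing in 9 and 10 of 15 other settings. Of 19 tested targets, 5 rose and 1 fell, with a median of -0.018. Among the rises were Irf8, Cd274, encoding PD-L1 (0.15), B2m (0.12) and Gbp2 (0.12). Cd274 passed in all 15 other settings, Gbp2 in 10 and B2m in 8.

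The partners of the remaining members were examined in the same way, in lists that include the member itself. Of all genes tested, 10.9% were called. Among 10 tested genes of carnitine transport and carnitine acyltransfer, Cpt1a rose by 0.12 and Cpt1c fell by 0.39 on the log2 scale, in 7 and 6 of 15 other settings, and the median was -0.032. In the list of collagen hydroxylation, 3 of 11 tested genes rose, Plod2 (0.19), Plod3 (0.24) and P4ha1 (0.17), in all 15 other settings, while P4ha2 did not. For Rad50, 12 genes of the MRE11-RAD50-NBN complex and of break repair were tested and 2 fell, Mdc1 (-0.22, in all 15 other settings) and Xrcc2 (-0.34, in 8), and Mre11a (0.038, adjusted p = 0.723) and Nbn (-0.084, adjusted p = 0.565) were not called. Of 12 tested kinesin-2 and intraflagellar transport genes, 0 were called by edgeR or by DESeq2, and 2 had an unadjusted p under 0.05 in edgeR, both lower. The medians of these last lists were -0.076 and -0.088, against -0.0053 for all genes.

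The genes whose log2 CPM across the 8 libraries was most like that of Il13 by Pearson's r were Eif1 (0.995), Hccs (0.989), 4931406C07Rik (0.987), Tnfsf11 (0.987) and Phldb3 (0.984). All 5 were themselves called higher. For Csf2 they were Spry2 (0.992), Mapkapk2 (0.987), Rgs16 (0.986), Plk3 (0.984) and Serpine2 (0.982), also all called higher. Rgs16, a regulator of G protein signalling, went from 51.9 to 134 CPM (log2 fold change 1.37), a far wider change than that of Csf2. No other gene of the interval was among these genes, but lists of 5 cannot tell whether neighbours varied together. The correlations describe libraries that share 2 group means, and no p is given for them.

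**Figure D5:**
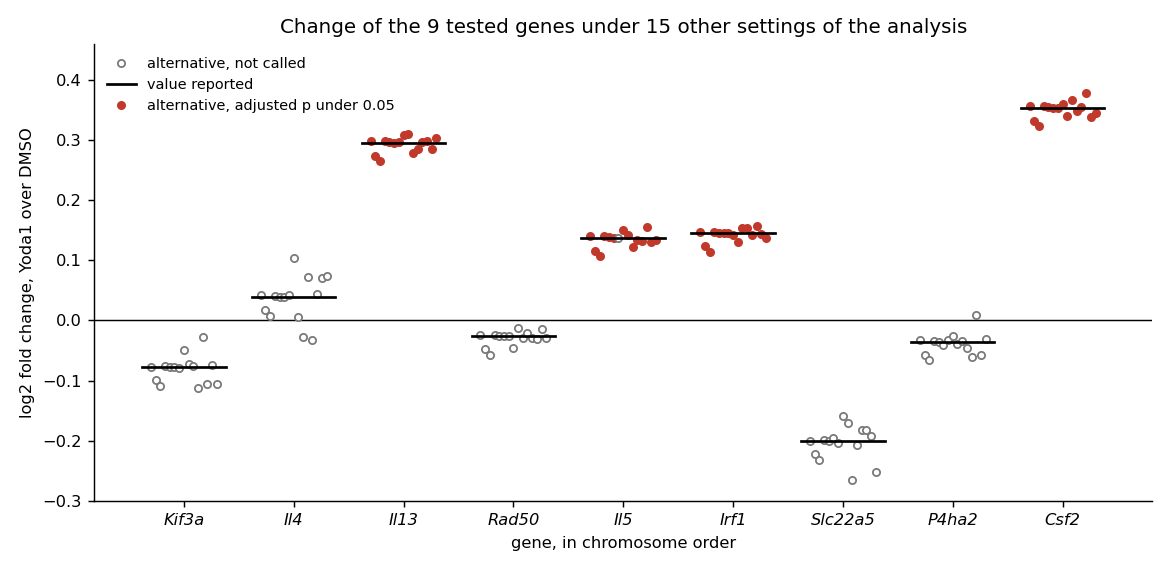
Log2 fold change (Yoda1 over DMSO) of the 9 tested genes in the reported analysis (black line) and in 15 other settings (points; red where the adjusted p was under 0.05). Csf2, Il13 and Irf1 were called in all 15 and Il5 in 14, and the points of the other genes are open throughout.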

How the data were processed

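For each of 8 libraries the authors deposited whole-number counts of reads by gene symbol, not normalized and not pooled. Poly(A) RNA was made into directional libraries (NEBNext Ultra II). The study's methods list BBMap, Cufflinks and Cuffdiff after quality control and trimming, and the submitters' processing notes name TopHat and mm10. The annotation, strand setting and tool versions are not given in the sources used here.

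Genes were filtered with filterByExpr (minimum count 10, minimum total 15), scaled with TMM and compared in R 4.3.3 with edgeR 4.0.16 (quasi-likelihood, robust) with Benjamini-Hochberg adjustment at 0.05. Standard errors and 95% intervals come from the same fit. The counts are of reads, so depth speaks for counting error only. Log2 ratios used counts plus 0.5. Exact permutation tests used SciPy 1.17.1. Alternatives were DESeq2 1.42.0, limma 3.58.1 (voom), 2 other scalings, 2 other filters, a replicate block and 8 fits that each left out 1 sample, and the limma fit of ratios was added after seeing the data. The edgeR step was tested on simulated counts. Symbols were matched to GENCODE M21 (95.5%).

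The members, lists and tests were chosen with earlier results of these data known. Besides the members, the genes named are tested genes of the interval and flanking genes that were called or adjoin an end. Up to 5 called genes per list are named by p. The receptors, Gata3 and the 5 genes most like each of Il13 and Csf2 are named as well. Aff4, Tcf7 and Gm2a fall under the flanking rule. Markers are named where called or as examples. Some items under these rules are not reported here.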

Additional observations from a re-analysis of the deposited data

Results flagged for a closer look

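In Yoda1 replicate 3, Rad50 stood at 197.6 CPM, apart from the other 3 Yoda1 samples, of which the nearest was at 203.0 CPM. Its gap to that sample, divided by the range of the group, exceeded Dixon's critical value for 4 samples. This was 1 of 32 groups of samples examined, of which chance alone would mark 1.6.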

How the results depend on the processing

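Csf2, Il13 and Irf1 were called in all 15 other settings, with log2 fold changes of 0.32 to 0.38, 0.27 to 0.31 and 0.11 to 0.16. Il5 was called in 14, at 0.11 to 0.16, and lost its call with the replicate block (adjusted p = 0.0506). The other 5 tested members were called in none. The sign of an uncalled value turned as 1 sample was left out for P4ha2 (-0.062 to 0.0095), Il4 (-0.032 to 0.10), Slc22a21 (-0.55 to 0.24), Csf2ra (-0.013 to 0.13) and Gata3 (-0.031 to 0.032), and for Gata3 also with library totals alone (-0.021) and with upper-quartile factors (-0.031). Upper-quartile factors gave 958 genes called lower. Leaving out 1 sample gave 367 to 677 lower genes, with 367 without DMSO replicate 2 and 374 without Yoda1 replicate 4. In the interval and its flanks 8 of 31 genes were called, beside 10.9% of all genes tested. That count was 5 with the replicate block and 5 to 9 without 1 sample, with 5 without Yoda1 replicate 1. The limma fit of ratios, adjusted over the genes of each fit, gave 5 passing pairs. Counts of the other alternatives stayed within 1.5 times the reported count.

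Same-numbered samples did not deviate together (correlations 0.048, 0.071, -0.028 and 0.00023), so the numbers were not taken as pairs, and with 3 samples against 4 the smallest permutation p is 0.0571, which cannot pass. The replicate block gave 548 higher and 418 lower genes. Il3 could not be assessed at this depth, and changes of P4ha2 and Il4 as small as that of Il5 lie within their error.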
